A study of Mus musculus with 6 samples.

Results

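The CC chemokines described here are 10 ligand genes (Ccl2, Ccl7, Ccl8, Ccl12, Ccl11, Ccl3, Ccl4, Ccl5, Ccl20 and Ccl22), found by their symbols among the 46603 gene identifiers of each deposited count file. Their transcripts were measured by RNA sequencing in 6 libraries from cultures described as enteric glial cells (EGCs), which support the neurons of the enteric nervous system. The cultures came from whole intestines of C57BL/6J mouse embryos at E14.5. They were grown for 1 week as neurospheres (floating clusters of neural progenitors) with EGF, FGF and B27, and then plated on poly-D-lysine in medium with 10% FBS until confluent. The 3 libraries of the LPS group came from cells given lipopolysaccharide, a component of the outer membrane of Gram-negative bacteria, at 100 ng/ml for 12 h, and the 3 control libraries were labelled as having no treatment. Each group carried replicate numbers 1, 2 and 3. The labels did not say whether the libraries of a group came from separate litters or cultures, so that the p-values measure only the spread between these libraries, which may be technical.

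Chemokines are small secreted proteins that guide leukocytes along a concentration gradient by binding G protein-coupled receptors, and the CC family is named for a pair of adjacent cysteines near the amino terminus. In the gut wall, ligands of the receptor CCR2 draw monocytes out of the blood, and other members attract eosinophils, T cells or dendritic cells. LPS is sensed by TLR4, which acts through NF-κB and, by a second branch, through interferon regulatory factors.

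The libraries held between 18775316 counts (LPS replicate 2) and 23664312 counts (control replicate 3). Both libraries numbered 3 stood apart from the others of their group. The chi-square per degree of freedom between libraries of a group was 6.72 and 7.07 for replicates 1 and 2 of control and LPS, and between 62.5 and 135 for every pair that held a replicate 3. The labelled cell type was checked against marker genes. Of 9 glia markers, 8 were above 3 counts in every library and 1 was not, and Sox10 ranged from 73.8 to 101 CPM (counts scaled to a corrected library size of 1000000). In the edgeR test S100b was called lower with LPS (24.7, 20.5 and 21.4 against 4.94, 3.46 and 9.37 CPM) and Fabp7 higher (2.67, 2.26 and 2.73 against 5.34, 7.41 and 6.07 CPM), and no further glia marker was called in that test. Other cell types were also represented. The summed level of 6 mesenchymal markers was between 14781 and 15716 CPM, of which Dcn and Pdgfra were called higher (log2 fold change 0.90 and 0.50, edgeR adjusted p = 0.0118 and 0.0114). The sum of 14 macrophage markers was 4282, 5558 and 13125 CPM in control replicates 1, 2 and 3 and 4127, 5347 and 20593 CPM in LPS replicates 1, 2 and 3. Lyz2 made up most of that sum. Within the list Adgre1 was called higher (159.0, 229.3 and 472.1 against 952.4, 1261 and 3700 CPM, edgeR adjusted p = 0.0452). Mrc1 had 197.0, 331.4 and 752.5 against 9.29, 10.4 and 131.3 CPM (edgeR adjusted p = 0.146, and 0.0124 with the block). All 5 smooth muscle markers were called lower with LPS, against 6.71% of all genes (summed, 2357, 2369 and 2119 against 848.6, 832.1 and 592.1 CPM). The sum of 3 markers of interstitial cells of Cajal was 202.5, 203.6 and 68.2 CPM in control and 86.97, 78.4 and 50.5 CPM in LPS, with Kit called lower (edgeR adjusted p = 0.0473). The sum of 3 mesothelial markers was 63.9, 57.99 and 86.7 CPM in control and 31.0, 31.7 and 54.3 CPM in LPS, with Msln, Upk3b and Wt1 called lower with the block alone (edgeR adjusted p = 0.0253, 0.0061 and 0.00878). The sum of 3 endothelial markers was 10.51, 10.05 and 17.4 CPM in control and 7.71, 8.25 and 20.6 CPM in LPS. Of these, Pecam1 and Cdh5 were called higher with the block alone (edgeR adjusted p = 0.0246 and 0.0306). Kdr, the most abundant, was at 9.58, 8.99 and 13.7 against 5.98, 5.80 and 11.6 CPM. It was not called (log2 fold change -0.47, edgeR adjusted p = 0.387, and 0.0561 with the block). The sum of 6 granulocyte and mast cell markers was 3.14, 3.63 and 14.1 CPM in control and 31.4, 37.3 and 75.5 CPM in LPS, most of it from Csf3r (2.88, 3.32 and 13.2 against 16.4, 23.7 and 71.4 CPM, edgeR adjusted p = 0.0986, and 0.000719 with the block). S100a8 was called higher, and S100a9, Ly6g, Cpa3 and Mcpt4 were at or under 3 counts in every library. The summed glia markers were 449.2, 402.3 and 314.9 CPM in control and 381.0, 388.1 and 366.3 CPM in LPS. All 6 lymphocyte markers were at or under 3 counts in every library. Which cells of the culture made a given transcript was not measured, and the part of these marker shifts in the chemokine levels was not tested.

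All 10 ligands passed the filter on low counts, and 9 were called higher with LPS, against 9.09% of all 15226 genes tested. A call is an adjusted p under 0.05 in the edgeR quasi-likelihood test over all genes. None of the ligands had a lower fitted level. Ccl5, Ccl20 and Ccl22 had at most 6, 10 and 3 counts in control libraries, and passed the filter only through the LPS libraries. With no filter on low counts the same 9 were called. The members were chosen with earlier results of these data known, so that these counts describe the family and do not test it. The levels of the groups did not overlap for any of the 10, a pattern seen in this direction in 19.3% of all genes, and in the opposite direction in 19.4%. The median log2 fold change of the 10 ligands was 4.95, beside -0.02 over all genes. With the replicate number as a block, all 10 were called higher, against 15.4% of all genes. Together the ligands took 0.0117%, 0.0121% and 0.0132% of all counts in the control libraries and 0.52%, 0.58% and 0.357% in the LPS libraries. In bulk RNA, more cells of a type and more RNA per cell cannot be told apart, and this holds for every level given here.

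**Figure D1:**
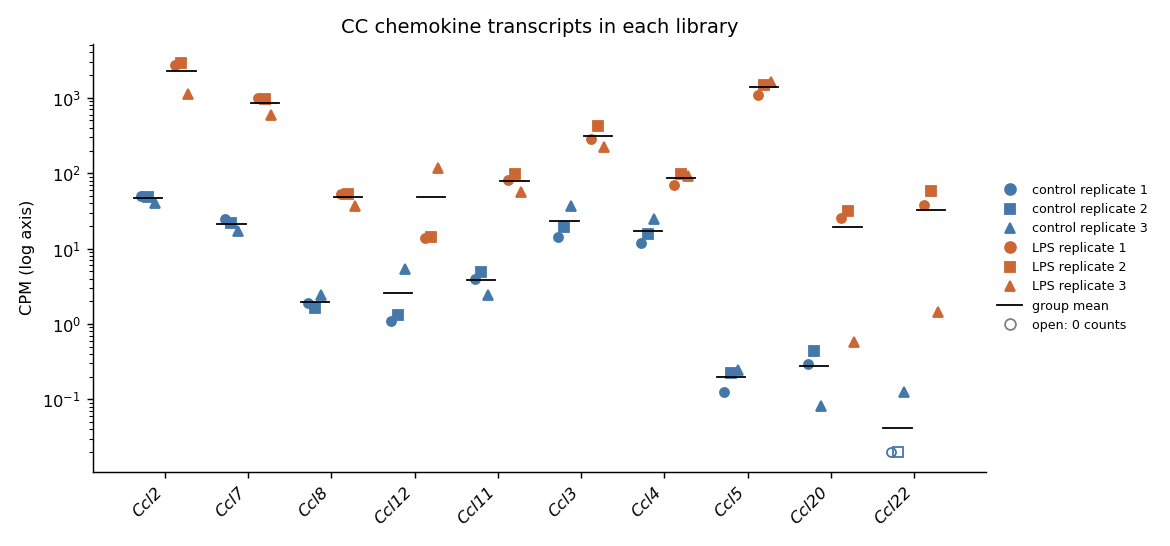
Level of each CC chemokine transcript (CPM, log axis) in 3 control and 3 LPS libraries, with bars at the group means and open symbols for libraries with 0 counts. LPS libraries lie above control libraries for all 10 genes, and LPS replicate 3 lies far from the other LPS libraries for Ccl12, Ccl20 and Ccl22.

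Of the members, 8 lie on chromosome 11, in a pair of clusters separated by 1.41 Mb (GRCm38, GENCODE M21 gene models, all protein-coding). The first cluster spans 81.2 kb and holds, in this order on the plus strand, Ccl2 (chr11:82035571-82037453), Ccl7 (chr11:82045712-82047525), Ccl11 (chr11:82057823-82062955), Ccl12 (chr11:82101845-82103400) and Ccl8 (chr11:82115185-82116799). The second spans 138.9 kb and holds Ccl5 (chr11:83525778-83530518, minus strand), Ccl3 (chr11:83647844-83649355, minus strand) and Ccl4 (chr11:83662584-83664683, plus strand). Ccl20 (chr1:83116766-83119167) and Ccl22 (chr8:94745590-94751699) lie alone, both on the plus strand. None of the members shared a 50-base exonic word with another gene, so that reads of that length had no identical second source among the annotated transcripts.

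Of the ligands of CCR2, the monocyte receptor, Ccl2 and Ccl7 were among the 3 most abundant members with LPS, and Ccl12 was not. Ccl2, the main monocyte attractant of this group, was at 50.3, 48.8 and 40.8 CPM in control replicates 1, 2 and 3 and at 2733, 2856 and 1135 CPM in the LPS replicates. The lowest LPS library, replicate 3, was still far above every control library. Ccl2 was 48.1-fold higher with LPS (ratio of group means), and its log2 fold change was 5.59 (SE 0.43, n = 3 per group, edgeR adjusted p = 0.00144). The ratio of LPS to control was 54.4 and 58.6 between libraries numbered 1 and 2, and 27.8 between those numbered 3.

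Ccl7, which also binds CCR2 and attracts monocytes, was at 24.7, 21.7 and 16.9 CPM in control and at 984.5, 960.5 and 596.8 CPM in LPS libraries. It rose 40.1-fold (log2 fold change 5.33, SE 0.28, edgeR adjusted p = 0.000383). As for Ccl2, replicate 3 was the lowest library of both groups. Per kilobase of exon, Ccl2 exceeded Ccl7 in every library, by 1.43, 1.58 and 1.70 times in control and by 1.95, 2.09 and 1.34 times in LPS libraries.

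Ccl12, a further mouse CCR2 ligand, had another pattern among libraries. It was at 1.10, 1.33 and 5.41 CPM in control and at 13.7, 14.1 and 118.0 CPM in LPS libraries. Replicate 3 was the highest library of both groups, and LPS replicate 3 was 8.59-fold above the lowest LPS library. The group means differed 18.6-fold, and the log2 fold change of 4.21 (SE 1.20) did not pass the test (edgeR adjusted p = 0.067). Within numbered pairs the ratio was 12.5, 10.6 and 21.8. With the replicate number as a block, Ccl12 was called higher (log2 fold change 3.96, edgeR adjusted p = 0.00162), and it was also called with both libraries numbered 3 left out (3.54, edgeR adjusted p = 2e-05). Single libraries moved the fold: it was 2.40 without LPS replicate 3 and 5.33 without control replicate 3, on the log2 scale. Over the 15 alternatives that gave one, its adjusted p was between 2e-05 and 0.211, and 3 of them called it, while DESeq2 gave no adjusted p. The summed macrophage markers were likewise highest in replicate 3 of each group (13125 CPM in control and 20593 CPM in LPS, and 5147 and 9114 CPM without Lyz2), and their part in the Ccl12 levels was not tested.

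Ccl8, a neighbour of Ccl12 that in the mouse binds CCR8, was at 1.91, 1.64 and 2.40 CPM in control and at 52.4, 53.6 and 37.0 CPM in LPS libraries. It rose 24.1-fold (log2 fold change 4.58, SE 0.23, edgeR adjusted p = 0.00033). The LPS libraries were close together, with the highest 1.45-fold above the lowest. Within LPS replicates 1 and 2, Ccl8 per kilobase was 4.01 and 3.996 times Ccl12, and in LPS replicate 3 it was 0.329 times Ccl12.

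Because these adjacent genes diverged in replicate 3, the bases before their start sites are shown (RefSeq, GRCm38.p6, plus strand, 250 bases before each annotated start). The capitals mark TATAAA, the letters of a TATA box, read on the plus strand. They lie at -32 to -27 in Ccl8 and at -31 to -26 in Ccl12, counted from the start site.
Ccl8 (chr11:82114935-82115184): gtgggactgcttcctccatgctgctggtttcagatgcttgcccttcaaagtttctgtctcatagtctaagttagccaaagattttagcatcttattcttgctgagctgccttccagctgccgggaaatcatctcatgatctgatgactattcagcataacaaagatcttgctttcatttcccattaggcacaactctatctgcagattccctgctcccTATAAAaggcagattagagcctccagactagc
Ccl12 (chr11:82101595-82101844): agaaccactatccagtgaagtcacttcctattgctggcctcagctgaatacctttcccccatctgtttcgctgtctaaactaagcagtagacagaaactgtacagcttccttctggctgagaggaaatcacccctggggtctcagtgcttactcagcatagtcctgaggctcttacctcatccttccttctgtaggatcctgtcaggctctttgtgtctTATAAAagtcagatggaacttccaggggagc
These letters were found in 8.32% of 32851 promoters of the same table, searched over 300 bases (250 before to 50 after the start). Of the 10 members, 5 had a promoter in that table (Ccl3, Ccl8, Ccl12, Ccl20 and Ccl22), and TATAAA was in 2 of them. A match is a description of the letters and not evidence of a bound factor.

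Ccl11, or eotaxin, attracts eosinophils through CCR3. It was at 3.98, 4.91 and 2.44 CPM in control and at 80.9, 97.3 and 56.3 CPM in LPS libraries. Replicate 3 was the lowest in both groups and the ratio within pairs was even, at 20.3, 19.8 and 23.1. Ccl11 rose 20.7-fold (log2 fold change 4.37, SE 0.34, edgeR adjusted p = 0.00157).

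**Figure D2:**
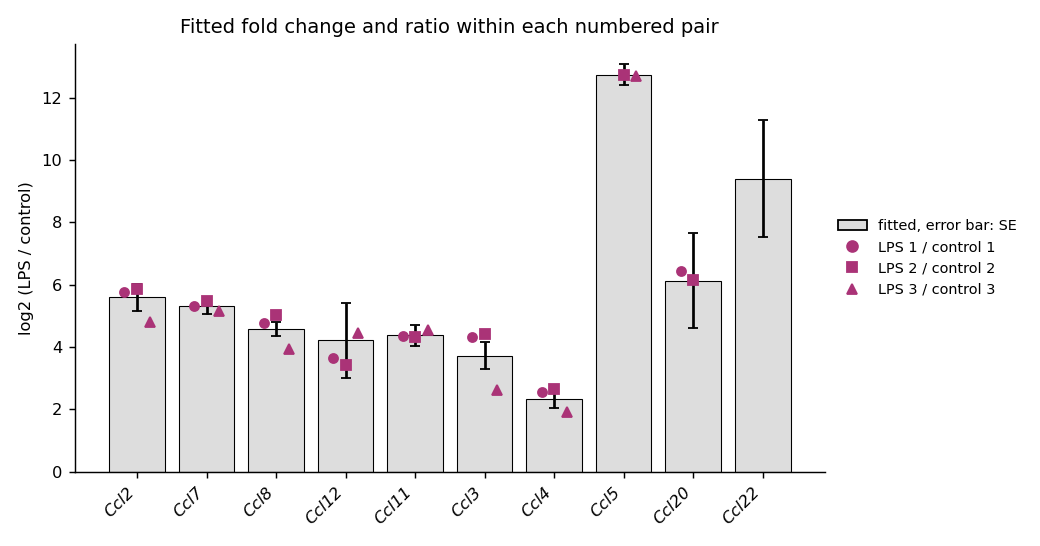
Fitted log2 fold change of LPS over control for each CC chemokine (grey bars, error bars show the SE, n = 3 per group) with the log2 ratio inside each numbered pair (purple symbols), which is left out where the control library held 3 counts or fewer. In this fit of all 6 libraries Ccl5 has the highest bar (12.74) and Ccl4 the lowest (2.32), and the bar of Ccl22 depends on the prior count of the fit.

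The macrophage inflammatory proteins Ccl3 and Ccl4, neighbours on chromosome 11, both attract monocytes and T cells. Ccl3 was at 14.3, 19.6 and 36.6 CPM in control and at 288.0, 418.1 and 225.7 CPM in LPS libraries. Control replicate 3 was the highest control library, whereas LPS replicate 3 was the lowest LPS library. Ccl3 rose 13.2-fold (log2 fold change 3.72, SE 0.44, edgeR adjusted p = 0.0058), with pair ratios of 20.1, 21.3 and 6.16.

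Ccl4 was at 11.9, 15.7 and 24.4 CPM in control and at 70.0, 99.0 and 91.8 CPM in LPS libraries. It rose 5.01-fold, the lowest fold of the 10 (log2 fold change 2.32, SE 0.30, edgeR adjusted p = 0.00734). The call was lost without control replicate 2 (log2 fold change 2.26, edgeR adjusted p = 0.0547) and kept when any other library was left out. The ratio of Ccl3 to Ccl4 per kilobase was 1.04, 1.08 and 1.29 in control and 3.54, 3.64 and 2.12 in LPS libraries, with no overlap between groups (the ratio itself was not tested).

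Ccl5, or RANTES, attracts T cells and monocytes and is a known target of interferon regulatory factors. It was near the detection floor in control libraries, with 3, 5 and 6 counts (0.127, 0.221 and 0.248 CPM), and reached 1084, 1483 and 1626 CPM with LPS. The LPS libraries were close together, and replicate 3 was the highest of them. The log2 fold change was 12.74 (SE 0.33, edgeR adjusted p = 7.71e-05), the largest of the 10 in the fit of all 6 libraries. With both libraries numbered 3 left out, the fitted value was 12.83 for Ccl5 and 13.00 for Ccl22, whose control libraries then held 0 counts. From the summed counts, 79616 against 14, the ratio corrected for library size was 6987, with a 95% interval of 4164 to 12781 that covers counting error only.

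Ccl20, the ligand of CCR6 that attracts dendritic cells and lymphocytes, was low in control libraries, with 7, 10 and 2 counts (0.297, 0.443 and 0.0827 CPM). In LPS libraries it was at 25.7, 31.7 and 0.576 CPM (520, 568 and 11 counts). LPS replicate 3 was thus 2.98% of the mean of the LPS libraries, and close to the highest control library. The log2 fold change was 6.12 (SE 1.52, edgeR adjusted p = 0.047), and the ratio of the summed counts was 71.1 (95% counting interval 45.3 to 118.5). The call was lost without any one of control replicates 1, 2 and 3 (edgeR adjusted p = 0.151, 0.155 and 0.109) and without either of LPS replicates 1 and 2 (0.116 and 0.132). It remained without LPS replicate 3 (log2 fold change 6.69, edgeR adjusted p = 0.000935).

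Ccl22, which binds CCR4 on T cells and is made mainly by dendritic cells and macrophages, had 0, 0 and 3 counts in control libraries. In LPS libraries it was at 37.9, 58.3 and 1.47 CPM (767, 1047 and 28 counts). LPS replicate 3 was again low, at 4.50% of the mean of the LPS libraries. The edgeR adjusted p was 0.0263, and the ratio of the summed counts was 754.4 (95% counting interval 257.7 to 3662). The fitted log2 fold change of 9.39 (SE 1.88) depends on the prior count, and it was 12.41 without control replicate 3. As for Ccl20, the call was lost when control replicate 1, 2 or 3 was left out (edgeR adjusted p = 0.108, 0.121 and 0.0972) or LPS replicate 1 or 2 (0.0729 and 0.0791), and remained without LPS replicate 3 (0.000685). Of 5 dendritic cell markers, Flt3, Xcr1 and Cd209a were at or under 3 counts in every library, and the summed markers were 12.4, 13.6 and 20.95 CPM in control and 7.21, 7.245 and 9.997 CPM in LPS libraries. Most of the LPS sum was Zbtb46, which was called lower (log2 fold change -0.62, edgeR adjusted p = 0.0265).

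The bases before Ccl20 and Ccl22, the pair that was low in LPS replicate 3, are shown from the same RefSeq table (GRCm38.p6, plus strand). The capitals mark an NF-κB-like site (GGG, 5 bases of any kind, then CC), searched on both strands. In Ccl20 the matches on the strands overlap one another and lie within -82 to -71, and in Ccl22 they lie on the minus strand at -162 to -153 and at -131 to -122, counted from the RefSeq start.
Ccl20 (chr1:83116516-83116765): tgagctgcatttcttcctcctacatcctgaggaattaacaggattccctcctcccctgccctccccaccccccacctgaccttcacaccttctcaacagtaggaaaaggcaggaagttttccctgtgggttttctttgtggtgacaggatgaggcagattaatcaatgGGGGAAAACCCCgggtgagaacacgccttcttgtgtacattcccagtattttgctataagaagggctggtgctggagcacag
Ccl22 (chr8:94745434-94745589): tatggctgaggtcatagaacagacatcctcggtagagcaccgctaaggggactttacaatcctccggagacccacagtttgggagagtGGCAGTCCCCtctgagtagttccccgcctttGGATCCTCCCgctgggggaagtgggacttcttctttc
The Ccl22 sequence ends before the GENCODE start, which lies 94 bases upstream of the RefSeq start. These letters occurred in 2 of the 5 member promoters and in 50.8% of all 32851 promoters. The letters of an interferon-stimulated response element (GAAA, 2 bases of any kind, then GAAA, on both strands) were in none of the 5 and in 3.44% of all. The Ccl3 window held none of the 3 searched motifs.

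The spread among LPS libraries differed from gene to gene. LPS replicate 3 held the lowest value of 7 members (Ccl2, Ccl7, Ccl8, Ccl11, Ccl3, Ccl20 and Ccl22) and the highest of 2 (Ccl12 and Ccl5). It was at 50.7% of the LPS mean for Ccl2, 70.4% for Ccl7 and 77.5% for Ccl8, but at 116.4% for Ccl5 and 242.8% for Ccl12. In the control group, replicate 3 held the highest value of 6 members. Each member was higher with LPS in each of the 3 numbered pairs. The ratio was smallest in pair 3 for 8 of them and in pair 2 for Ccl12 and Ccl11, where Ccl22 is among the 8 because its other control libraries had 0 counts.

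**Figure D3:**
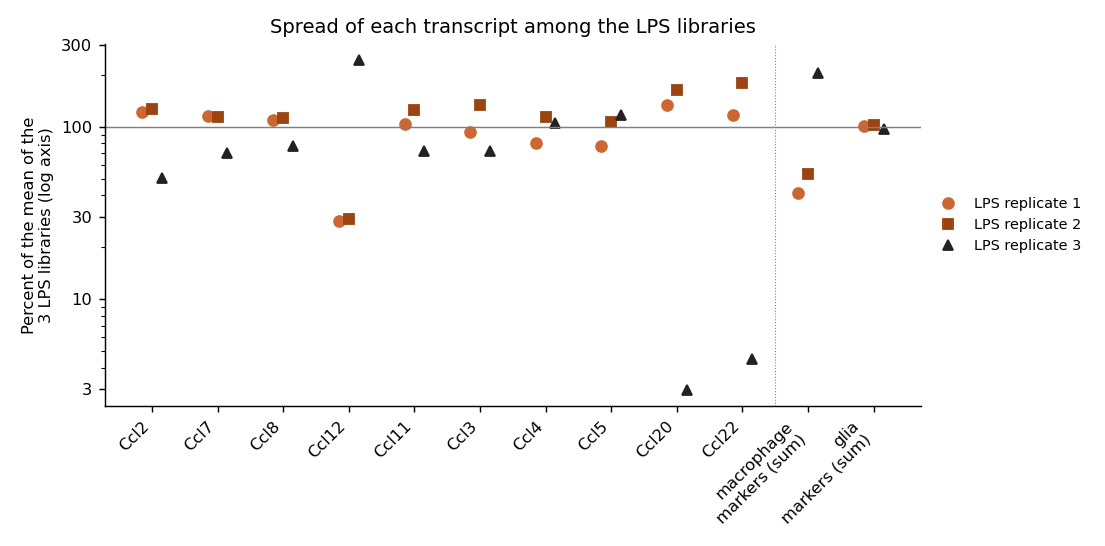
Each LPS library as a percent of the mean of the 3 LPS libraries (log axis) for the 10 CC chemokines and for the summed macrophage and glia markers. Replicate 3 is low for Ccl20 (2.98%) and Ccl22 (4.50%) and high for Ccl12 (242.8%) and the macrophage markers, while the glia markers lie near 100%.

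To compare genes with each other, CPM were divided by the exon length in kilobases. In control libraries the order of the means was Ccl2 (41.0 CPM per kilobase), Ccl3 (30.7), Ccl7 (26.4) and Ccl4 (26.3), then Ccl12 (4.87), Ccl8 (3.88) and Ccl11 (3.49), and then Ccl5 (0.207), Ccl20 (0.193) and Ccl22 (0.0178). Within the first 2 of these sets, and between Ccl5 and Ccl20, the ranges of neighbours overlapped. With LPS, Ccl2 (1970 CPM per kilobase), Ccl5 (1456) and Ccl7 (1058) led with overlapping ranges. Ccl3 (405.4) and Ccl4 (131.7) followed, each without overlap with the gene before it. The set of Ccl8 (93.3), Ccl12 (90.5) and Ccl11 (72.2) came next, and the wide range of Ccl12 also took in that of Ccl4. Ccl22 (14.01) and Ccl20 (13.6) were last, with overlapping ranges. Ccl5 was thus 8th in control and 2nd with LPS, an order that depends on the length used. With the longest annotated transcript its LPS share of the summed level was 35.8%, above the 33.0% of Ccl2, and without length its control share was 0.167%, below the 0.241% of Ccl20.

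The summed level of the 10 ligands per kilobase was 121.6, 130.2 and 159.2 in control and 5479, 6218 and 4216 in LPS libraries. Ccl5 supplied 0.109%, 0.177% and 0.162% of that sum in control and 20.6%, 24.8% and 40.2% in LPS libraries. Ccl3 went from 21.7% ± 7.53 to 7.54% ± 1.07 of the sum (SD, n = 3 per group), with no overlap. Likewise Ccl4 went from 18.8% ± 4.22 to 2.55% ± 0.691, and Ccl8 from 2.83% ± 0.321 to 1.76% ± 0.0999. For each of these 4 shares the 2-sided exact permutation p was 0.1, the smallest that 3 libraries against 3 can give, so that no share could pass 0.05. The shares of Ccl3, Ccl4 and Ccl8 were thus lower with LPS although their own levels rose.

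The shares of the other members overlapped between groups. Ccl2 held 36.3%, 32.9% and 22.5% of the sum in control and 43.8%, 40.4% and 23.7% in LPS libraries, and was lowest in replicate 3 of both. In LPS replicate 3, Ccl5 exceeded Ccl2 by 1.70 times per kilobase, whereas in replicates 1 and 2 it was 0.470 and 0.615 times Ccl2. Ccl2, Ccl7 and Ccl5 together made up 86.9%, 84.5% and 81.5% of the sum in LPS libraries and 61.8%, 54.0% and 36.0% in control libraries. The 5 genes of the first chromosome 11 cluster held 59.2% ± 11.7 of the sum in control and 60.9% ± 10.4 in LPS libraries (exact permutation p = 0.7).

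**Figure D4:**
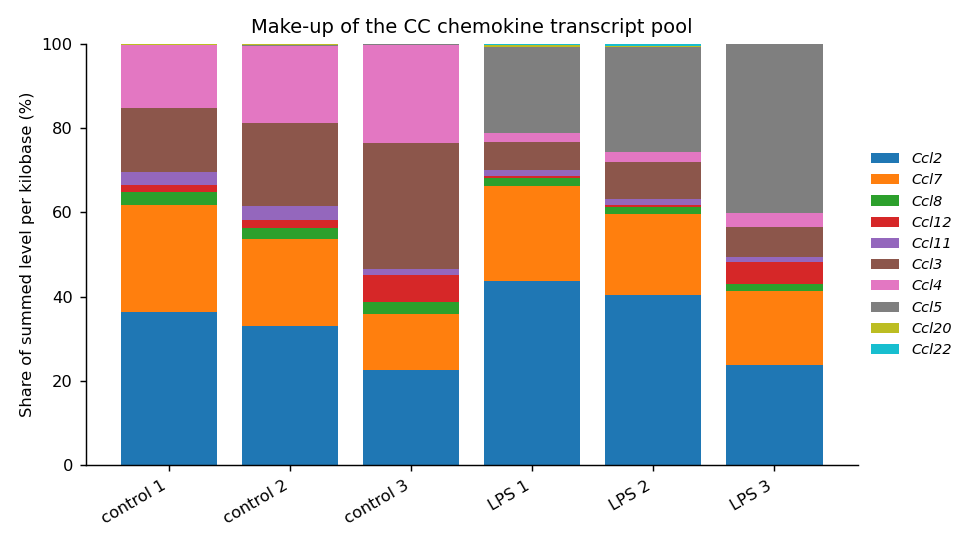
Share (%) of each CC chemokine in the summed level of all 10 per kilobase of exon, as stacked bars for the 3 control and 3 LPS libraries. Ccl5 is not visible in control bars and takes 20.6%, 24.8% and 40.2% in LPS bars, while Ccl3 and Ccl4 together go from between 30.2% and 53.3% to between 8.80% and 11.2%.

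Of 14 further CC ligand symbols, 6 had no count in any library, and 5 genes passed the filter (Ccl6, Ccl9, Ccl25, Ccl27a and Ccl28). In the edgeR quasi-likelihood test none of the 5 was called, against 9.09% of all genes higher and 6.71% lower, and none had an unadjusted p under 0.05. DESeq2, the edgeR exact test and limma-voom also called none. With the replicate block, 1 of the 5 was called higher, against 15.4% of all genes. The lists of ligands were chosen with earlier results of these data known, so that their counts do not test a difference between them.

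That gene was Ccl9, a CCR1 ligand made by myeloid cells, at 40.0, 62.8 and 177.7 CPM in control and 163.8, 175.8 and 578.6 CPM in LPS libraries. Its highest control library was above its lowest LPS libraries, and replicate 3 was the highest of both groups. The log2 fold change was 1.71 (SE 0.75, edgeR adjusted p = 0.182), and 1.74 with the replicate block (edgeR adjusted p = 0.00223), with a range of 0.000572 to 0.402 over the alternatives. It was 0.86 without LPS replicate 3 and 2.59 without control replicate 3. Ccl6, a related ligand, was at 79.7, 108.9 and 226.4 CPM in control and 159.2, 127.3 and 198.3 CPM in LPS libraries, with a log2 fold change of 0.22 (SE 0.41, edgeR adjusted p = 0.751). Per kilobase, Ccl6 was the most abundant CC ligand of the control libraries by mean (77.1, beside 41.0 for Ccl2), and it was above Ccl2 in each of them (from 44.4 to 126.1, beside 35.9 to 44.2). Ccl17, which shares the receptor CCR4 with Ccl22, did not pass the filter, with 1, 1 and 6 counts in control and 24, 18 and 5 counts in LPS libraries. It was, like Ccl22, lowest with LPS in replicate 3. It passed the filter when 1 library was left out in 4 cases. It was called without LPS replicate 3 (log2 fold change 3.21, edgeR adjusted p = 0.0288) and not without control replicate 1, 2 or 3 (edgeR adjusted p = 0.214, 0.234 and 0.0554).

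Receptor genes were counted as well. Of 15 receptor genes of the CC and atypical families, 7 passed the filter, 1 was called higher and 1 lower (all genes: 9.09% higher and 6.71% lower). With the replicate block the counts were the same, beside 14.9% of all genes lower. Ccr2, the receptor of Ccl2, Ccl7 and Ccl12, had 2, 7 and 21 counts in control and 1, 0 and 14 counts in LPS libraries, and did not pass the filter. In the 5 alternatives that tested it, its adjusted p was between 0.657 and 0.963. Ccr1, a receptor of Ccl3, Ccl5 and Ccl9, was at 2.80, 5.36 and 56.0 CPM in control and 1.68, 0.892 and 37.3 CPM in LPS libraries. It was far higher in replicate 3 of either group than in replicates 1 and 2, as were the summed macrophage markers. Their part in the Ccr1 levels was not tested. Ccr3, the receptor of Ccl11, was at 1.48, 2.12 and 3.31 CPM in control and 0.840, 0.557 and 5.39 CPM in LPS libraries (edgeR adjusted p = 0.988). Ackr1, an atypical receptor, was more even, at 1.78, 1.59 and 1.57 CPM in control and 2.22, 3.18 and 2.15 CPM in LPS libraries. It was not called (log2 fold change 0.61, edgeR adjusted p = 0.137).

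Ccrl2, a chemokine-like receptor that binds chemerin and does not signal like the classical receptors, was at 2.03, 2.66 and 2.98 CPM in control and 24.8, 37.8 and 18.7 CPM in LPS libraries. It rose with a log2 fold change of 3.40 (SE 0.32, edgeR adjusted p = 0.00263). Ackr4, a scavenging chemokine receptor, was at 7.59, 6.64 and 2.07 CPM in control and 0.494, 0.446 and 0.890 CPM in LPS libraries. It fell by 3.14 on the log2 scale (SE 0.59, edgeR adjusted p = 0.0228). That call was lost when replicate 1 or 2 was left out, in control (edgeR adjusted p = 0.0803 and 0.0941) and in LPS (0.0886 and 0.0985). Ackr2, the scavenger of inflammatory CC ligands, and Ccr8 had no count in any library.

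**Figure D5:**
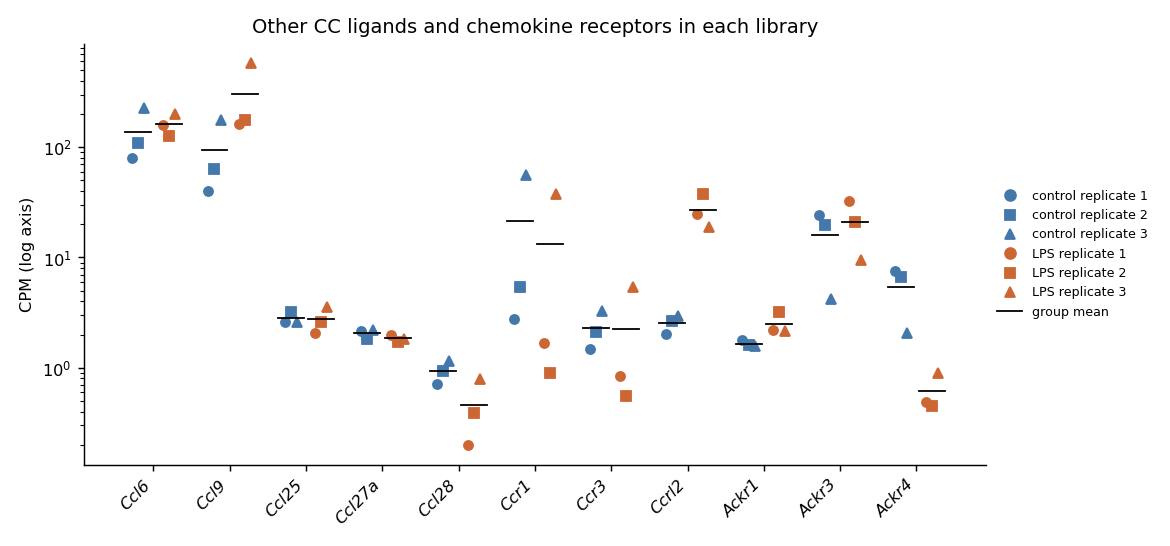
Level (CPM, log axis) of the 5 other CC ligands and of 6 receptors that passed the filter, in 3 control and 3 LPS libraries, with bars at the group means. Ccrl2 is higher and Ackr4 lower in all LPS libraries, and Ccr1 is highest in replicate 3 of both groups.

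A pathway known to lead from LPS to chemokine genes was read in the same libraries. Of 8 LPS sensing genes, 2 were called higher, against 9.09% of all genes, and 5 with the replicate block, against 15.4%. The count was 5 with DESeq2, 4 with the edgeR exact test, 2 with limma-voom and between 1 and 4 with single libraries left out. Tlr4, the receptor of LPS, was at 85.3, 95.2 and 98.2 CPM in control and 99.2, 88.5 and 95.2 CPM in LPS libraries (log2 fold change 0.02, SE 0.09, edgeR adjusted p = 0.892). Lbp, the LPS binding protein, rose by a log2 fold change of 3.81 (SE 0.43, edgeR adjusted p = 0.00505) and Ly96, the TLR4 partner MD-2, by 0.64 (SE 0.10, edgeR adjusted p = 0.01345). Cd14, the LPS co-receptor, was at 15.8, 28.6 and 92.4 CPM in control and 123.6, 172.3 and 343.5 CPM in LPS libraries. Its groups did not overlap, and it was called with the replicate block (log2 fold change 2.47, edgeR adjusted p = 0.00436) but not without it (2.23, edgeR adjusted p = 0.101). Without control replicate 3 it was called as well (3.28, edgeR adjusted p = 0.0285), and over the alternatives its adjusted p was between 0.00042 and 0.277. The call of Ly96 was lost when replicate 1 or 2 was left out, in control (edgeR adjusted p = 0.0676 and 0.0792) and in LPS (0.0604 and 0.0518).

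Of 13 regulators of the NF-κB and interferon branches, 10 were called higher, against 9.09% of all genes, and 11 with the replicate block, against 15.4%. Nfkbia, the inhibitor that NF-κB induces, rose by a log2 fold change of 3.47 (SE 0.15, edgeR adjusted p = 0.000217), and the subunits Nfkb1 and Relb by 1.86 (SE 0.10) and 1.996 (SE 0.12, edgeR adjusted p = 0.00044 and 0.000631). Irf7, the interferon regulatory factor that amplifies the interferon response, was at 4.03, 4.515 and 5.125 CPM in control and 467.3, 492.9 and 954.9 CPM in LPS libraries (log2 fold change 7.13, SE 0.39, edgeR adjusted p = 0.000417). Like Ccl5 and Ccl12, Irf7 was highest in LPS replicate 3. Irf3, which TLR4 activates by phosphorylation, had a log2 fold change of -0.03 (SE 0.10, edgeR adjusted p = 0.858). Of 2 genes that act on the products, Dpp4, a protease that trims chemokines, was at 1.86, 1.86 and 2.73 CPM in control and 0.297, 0.669 and 1.20 CPM in LPS libraries. Its log2 fold change was -1.57 (edgeR adjusted p = 0.08745), and -1.65 with the replicate block (edgeR adjusted p = 0.0287). It was also called without LPS replicate 3 (-2.16, edgeR adjusted p = 0.0278), and the range over the alternatives was 0.00883 to 0.237. Zfp36, which destabilises inflammatory transcripts, had a log2 fold change of 0.05 (SE 0.15, edgeR adjusted p = 0.838).

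Genes outside the family with the most similar profile were named by the root mean square difference (RMSD) of log2(CPM + 0.5), relative to each gene's control mean, over the 6 libraries. For a gene near or under 0.5 CPM in control, the added 0.5 largely sets this distance, so that a small value is not an equal fold. That is the case of H2-Q5, Apol9a, Tnfrsf9, Selp, Csf2, Irg1 and Il1b, and of the members Ccl5, Ccl20 and Ccl22. For Ccl2 the nearest genes were Mmp13, a collagenase (RMSD 0.158), C3, the central complement protein (0.232), and H2-Q5, an MHC class I gene (0.254). H2-Q5 was at 0, 0.0443 and 0.0413 CPM in control and 22.5, 24.7 and 12.7 CPM in LPS libraries, a larger ratio than that of Ccl2. C3 was at 60.8, 43.6 and 56.2 CPM in control and 2921, 2603 and 1381 CPM in LPS libraries, and like Ccl2 was lowest with LPS in replicate 3. For Ccl5 the nearest was Irg1, the itaconate enzyme (RMSD 0.262), at 0.0424, 0.177 and 0 CPM in control and 682.6, 953.4 and 1474 CPM in LPS libraries. The next nearest to Ccl5, Marco (1.03) and Il1b (1.04), were much farther away. The nearest to Ccl20 was the cytokine gene Csf2 (RMSD 0.402), at 23.2, 27.1 and 0.576 CPM in LPS libraries. The nearest to Ccl22 was Ptx3, a pattern recognition protein (0.339), at 98.5, 121.9 and 8.37 CPM. Csf2 and Ptx3 were, like their chemokine, low in LPS replicate 3. In control libraries Ptx3 was at 0.890, 1.06 and 1.41 CPM and Ccl22 at 0, 0 and 0.124 CPM, so that the ratio of Ccl22 was larger. The nearest to Ccl12 was Klra2 (RMSD 0.453), at 9.88, 11.3 and 57.6 CPM in LPS libraries and thus highest in replicate 3. Ccl7 was nearest to H2-Q5 (0.205), Ccl8 to Apol9a (0.0745), Ccl11 to Iigp1 (0.186), Ccl3 to Tnfrsf9 (0.18) and Ccl4 to Selp (0.164). H2-Q5, Apol9a, Iigp1 and Klra2 belong to multigene families with similar copies, so that their counts are uncertain.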

How the data were processed

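The RNA of 6 samples was made into libraries with a TruSeq RNA kit. Each deposited file held raw read counts for 1 library, which the authors made by trimming with cutadapt (1.15), removing contaminants with Bowtie2 (2.3.3.1), aligning to GRCm38 with STAR (2.5.2b), sorting with SAMtools (1.5) and counting with featureCounts (1.5.3), per the labels and processing notes. Strand and multi-mapping settings were not given in the sources used here. A deposited table of the whole series was not used. Genes were filtered with filterByExpr (minimum count 10, minimum total 15), which left 15226, scaled by TMM factors and compared with the edgeR (4.0.16, R 4.3.3) quasi-likelihood test, 2-sided, with Benjamini-Hochberg adjustment. The SE is the absolute log2 fold change divided by the square root of F. A gene at 3 counts or fewer in a library (between 0.124 and 0.167 CPM) was taken as at the detection floor. Floors and intervals cover counting error only, since PCR copies cannot be recognised. The members and gene lists were chosen with earlier results of these data known. All 10 members are named, other list genes were named where called or as examples, and nearest profiles were limited to 3 genes for Ccl2 and Ccl5 and 1 for each other member. Some list genes entered the counts and are not reported here by themselves. A self-test on simulated counts was run first. Alternatives were other scalings and filters, DESeq2 (1.42.0), the edgeR exact test, limma-voom (3.58.1), the replicate block, each library left out, and both libraries numbered 3 left out (chosen after seeing the data). The labels do not say what the replicate numbers stand for. Deviations from the group means correlated between libraries of the same number at r = 0.513, 0.334 and 0.613 over 15226 genes, so the numbers were taken to pair the libraries. Control 1 with LPS 2 (r = 0.419) and control 2 with LPS 1 (r = 0.323) correlated about as strongly, and pairs of a replicate 3 with another number lay between -0.564 and -0.396, so that the block mainly separates replicate 3 from the rest. RefSeq promoters (GRCm38.p6) matched 5 of the 10 members by symbol.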

Additional observations from a re-analysis of the deposited data

How the results depend on the processing

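Of 156 alternative values for the fold changes of the 10 CC chemokines, 140 kept direction and side of the threshold, 13 lost the call, 3 gained it and 0 changed direction. The 9 calls were between 6 and 9 when single libraries were left out, 7 with limma-voom (without Ccl20 and Ccl22) and 6 with at least 10 counts in every library, a filter that kept 7 members. In limma-voom the adjusted p was 0.325 for Ccl20 and 0.216 for Ccl22. Ccl12 was also called by the edgeR exact test (adjusted p = 0.00321). Of 100 alternative shares, 87 moved by less than 1 SD and 13 by more, with the level taken without length or with another length. Over all genes, 1384 were called higher and 1022 lower. These counts were 2079 and 1673 with DESeq2, 2343 and 2273 with the replicate block, and 3498 and 3159 with both libraries numbered 3 left out. They were between 379 and 1964 and between 112 and 1426 with single libraries left out. Lower calls were 1589 when scaled by the upper quartile and 2054 by library size alone. These scalings moved the median of all log2 fold changes from -0.02 to -0.12 and -0.18, and the share of higher calls from 57.5% to 39.8% and 32.4%. The other CC ligands called higher, 0 in the edgeR test, were 1 with the replicate block, between 0 and 1 with a library left out, and 3 without both libraries numbered 3, where 1 was also called lower. The 1 receptor called lower became 0 with at least 10 counts in every library and with limma-voom, between 0 and 1 with a library left out, and 3 without both libraries numbered 3. Besides the changes given with the results, the replicate block changed the call of no other member or list gene named with a test, apart from Myd88, Ticam2 and Irf5, which it added. The log2 fold change changed sign with a library left out for Ccl6 (between -0.047 and 0.79), Ccl25 (-0.26 and 0.14), Ccr1 (-4.04 and 1.72), Ccr3 (-1.71 and 0.43), Ackr3 (-0.059 and 0.84), Tlr4 (-0.028 and 0.079), Irf3 (-0.11 and 0.038), Irf5 (-0.25 and 1.06) and Zfp36 (-0.073 and 0.19), none of them called with all libraries and no block. The cause of these shifts was not tested. Depth limits Ccl22, Ccl20 and Ccl5 in control libraries, where they had at most 3, 10 and 6 counts.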
